A study of Homo sapiens with 18 samples.

Results

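Endothelial cells in which ELMO1 had been silenced were compared with cells that had received no siRNA, both 24 h after the double-stranded RNA mimic poly(I:C). The 6 libraries titled siELMO1 or Mock at 24 h, 3 of each, were taken from the 18 libraries of the series, and 15167 of the 62754 genes in the count matrix were expressed highly enough to be tested. All cells were EA.hy926, a human line made by fusing umbilical vein endothelial cells with the A549 lung carcinoma line. Mock cells were given the transfection reagent alone, and siELMO1 cells a pool of siRNAs against ELMO1 at 10 nM. Both were starved in low serum overnight and received poly(I:C) at 1 µg/ml 48 h after transfection. The other groups of the series were cells with a non-targeting siRNA at 10 nM (siNT) and all transfections before poly(I:C) (0 h). They enter below only as the values set beside the main comparison. The model is 1 cell line. The study's methods call the 3 libraries of a group biological replicates, and p-values measure the spread between them.

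ELMO1 is an adaptor that binds DOCK proteins, and the pair activates the small GTPase RAC, which drives actin remodelling, cell migration and the uptake of dying cells. Poly(I:C) is read by the endosomal receptor TLR3 and by the cytosolic helicases RIG-I and MDA5. These lead through the IRF and NF-κB transcription factors to type I and type III interferons, chemokines and cytokines. Endothelial cells also build the basement membrane of vessels, which is made of collagens, laminins and proteoglycans and is gripped by integrins.

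The 6 libraries held 52.1 to 68.9 M estimated counts each. Levels are given as CPM (counts scaled to a common library size of 1 M after TMM scaling, a correction for differences in library composition), and a count of 0 in these libraries allows up to 3 counts, or 0.0435 to 0.0576 CPM. Such limits cover counting error only. CPM is not divided by gene length, so levels are compared between libraries and not between genes. Differences are log2 fold changes of siELMO1 over Mock from edgeR's quasi-likelihood test, p-values were adjusted by Benjamini and Hochberg's method for all genes tested, and higher or lower means an adjusted p under 0.05. An exact permutation test of 3 against 3 libraries cannot go below 0.1 and was not used. Mitochondrially encoded genes took 1.74 to 2.14% of the counts. In bulk RNA, fewer cells of a type and less RNA per cell cannot be told apart.

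ELMO1 itself (ENSG00000155849.16, GRCh38 chr7:36852906-37449223) was at 1.52, 2.98 and 2.45 CPM in the 3 Mock libraries and at 0.288, 0.155 and 0.360 CPM in the 3 siELMO1 libraries. Every siELMO1 library lay below every Mock library, and Mock replicate 1 was the lowest of the Mock group with 80 counts against 180 and 143. The log2 fold change was −3.13 (SE 0.29, adjusted p = 1.2e-07, edgeR). The siELMO1 libraries held 19, 10 and 18 counts of the gene, and the transcript ELMO1-201 carried most of the counts in both groups. Of its partners, the exchange factor DOCK1 was higher in siELMO1 by 0.58 on the log2 scale (SE 0.06, adjusted p = 5.3e-07, edgeR), from 81.7 ± 3.64 to 122 ± 4.60 CPM (mean ± SD, n = 3). DOCK2, the haematopoietic exchange factor, was near the limit of expression and also higher, at 0.724, 0.563 and 0.377 CPM in Mock and 1.15, 1.62 and 1.22 CPM in siELMO1. The related adaptor ELMO2 (log2 fold change 0.04) and the GTPase RAC1 (−0.04) did not pass the test and their libraries overlapped. Over 16 tested genes of the ELMO, DOCK and RAC families, 6 were higher (37.5%) and 3 lower (18.8%). Over all genes tested the shares were 21.6% and 22.0%.

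siELMO1 and Mock cells differed in a large part of the transcriptome, mostly by small amounts. The groups differ both in the silencing of ELMO1 and in having received any siRNA. The comparison of siELMO1 with Mock cannot tell these apart. By adjusted p alone, 3273 genes were higher in siELMO1 (21.6% of genes tested) and 3337 were lower (22.0%). The median change of the called genes was 0.462 among the higher and 0.389 among the lower on the log2 scale, or 1.38-fold and 1.31-fold. With a fold change over 2 as well, 499 genes were higher (3.29%) and 273 lower (1.80%), so that the large changes leaned towards higher expression. Over 4-fold, 74 genes were higher and 61 lower. Among genes past both thresholds, 416 of the higher and 178 of the lower ones were protein-coding, while long non-coding RNAs contributed 63 to each side. The 3 siELMO1 and 3 Mock libraries did not overlap for 8163 genes (53.8%), which is the background for each statement that groups did not overlap. For genes named by the size of their fold change or by their abundance, absence of overlap was part of the rule that chose them.

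**Figure D1:**
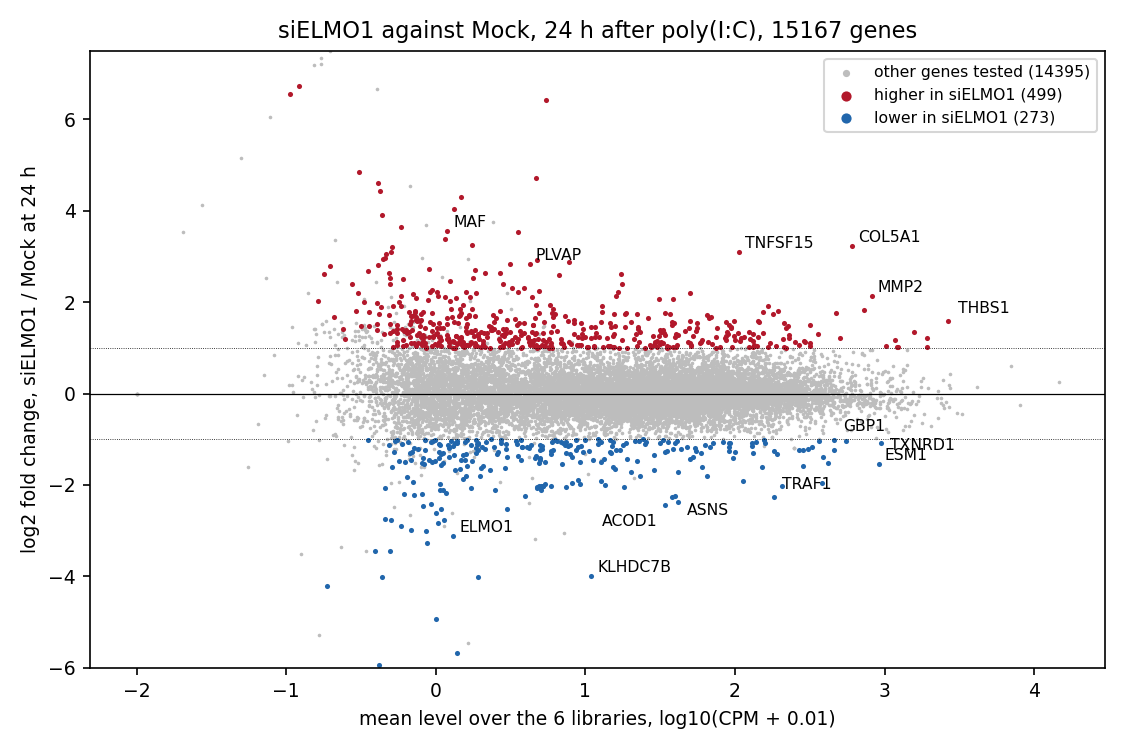
Log2 fold change of siELMO1 over Mock at 24 h (vertical) against the mean level over the 6 libraries as log10(CPM + 0.01) (horizontal), 1 dot per gene, with 17 genes outside the vertical range. Red dots are the 499 genes higher and blue dots the 273 genes lower by adjusted p that also passed a 2-fold change (dotted lines), and COL5A1, TNFSF15, ASNS and TRAF1 lie far out at moderate to high levels.

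One Mock library stood closer to siELMO1 than the others for many of the higher genes. Mock replicate 1 was the Mock library nearest to siELMO1 for 256 of the 499 higher genes (51.3%), against 76 for replicate 2 and 167 for replicate 3. For the 273 lower genes it was nearest for 100 (36.6%). Without this library 542 genes were higher and 287 lower, so the differences were larger without it. Lists and named genes were refitted without it, and the values are given, here or below, where a fold change or a count moves by 1.5 times or more. Interferon-stimulated genes higher and NRF2 target genes higher each went from 3 to 2. Cholesterol synthesis genes lower and ephrin, semaphorin and Notch genes lower each went from 2 to 1.

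Lists of functionally related genes in the plot of gene lists were ordered by the median of their members. Matrix and integrin genes stood at the top and amino acid supply, G2/M and S phase genes at the bottom. Nuclear structured RNAs, which are not in that plot, had a median of −2.02, and 5 of their 8 members are copies of 5.8S ribosomal RNA that share their reads. Each list is described by how many tested members were higher and lower by adjusted p and by the median log2 fold change of its members, beside 21.6% and 22.0% and a median of −0.01 over all genes. No test was applied to a list.

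**Figure D2:**
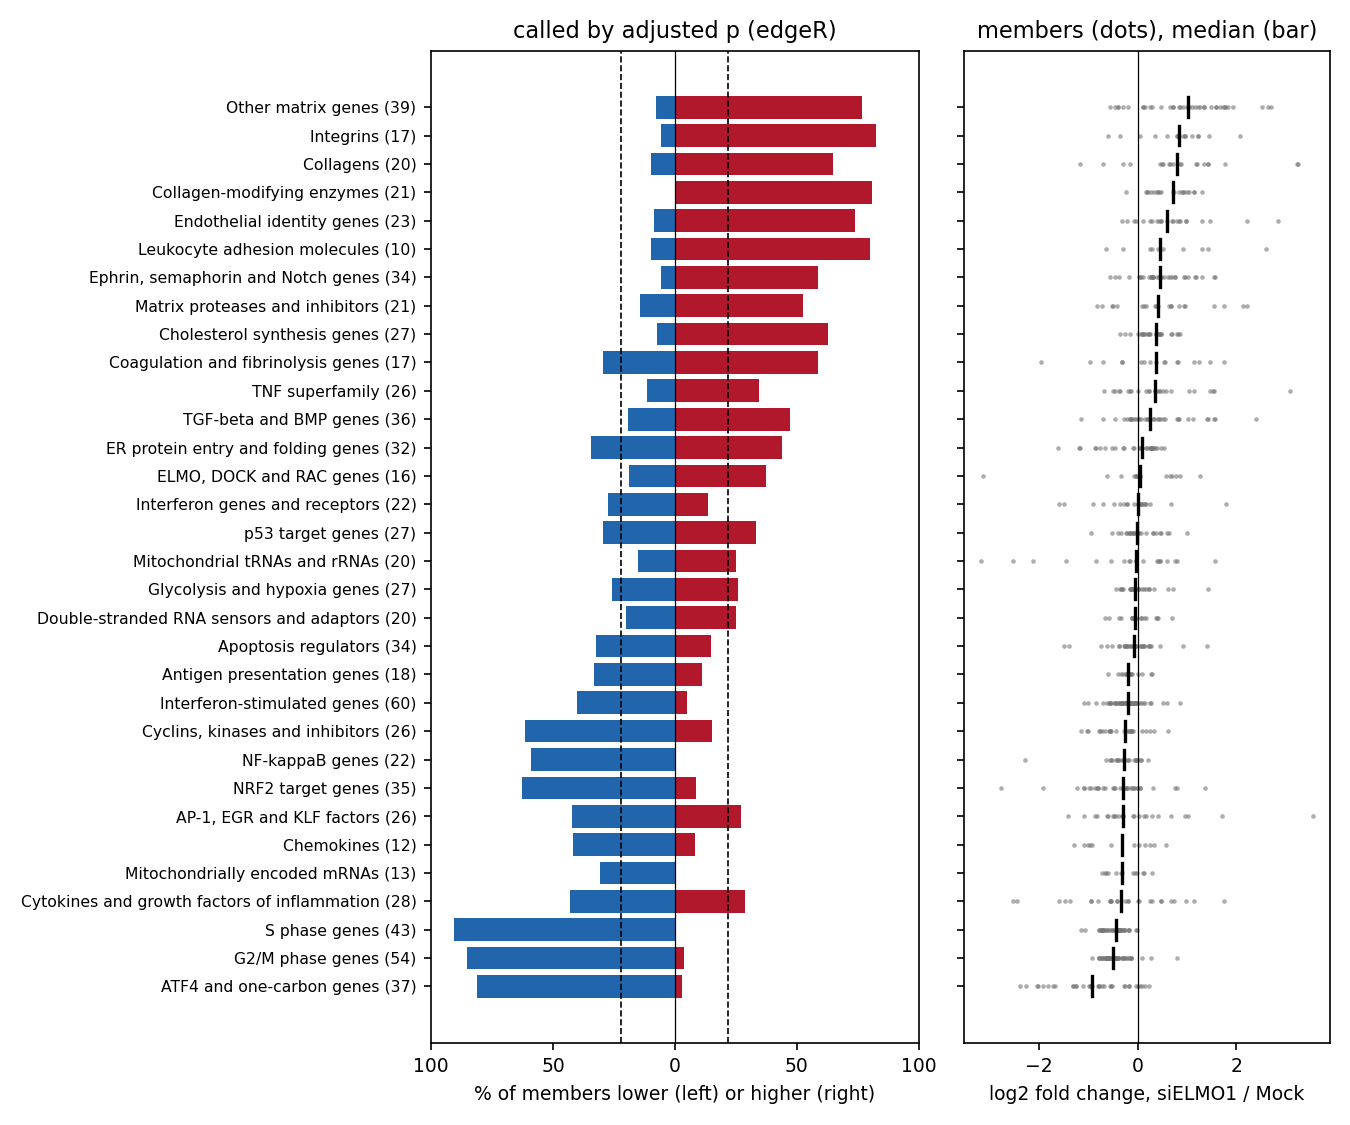
Left, the percentage of tested members of each gene list that were lower (blue, to the left) or higher (red, to the right) in siELMO1 than in Mock at 24 h by adjusted p, with the number tested in brackets and dashed lines at the percentages over all genes. Right, the log2 fold change of each member (dots) and the list's median (bar); integrin and matrix lists lie on the higher side and ATF4, S phase and G2/M lists on the lower side.

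Collagens and the rest of the extracellular matrix were higher in siELMO1. Of 20 collagen chains tested, 13 were higher and 2 lower, with a median of 0.79. COL5A1 (ENSG00000130635.17, chr9:134641803-134844843), a fibrillar chain that regulates fibril width, was at 198, 64.7 and 85.4 CPM in Mock and at 1130, 1127 and 1014 CPM in siELMO1. The siELMO1 libraries were close together and all far above Mock, of which replicate 1 was the highest. Its log2 fold change was 3.23 (SE 0.27, adjusted p = 3.9e-08, edgeR), and 3.85 without Mock replicate 1. COL15A1, a collagen of the basement membrane zone, rose from 0.552, 0.232 and 0.223 CPM to 3.41, 3.02 and 3.06 CPM, a log2 fold change of 3.24 (adjusted p = 1.1e-06, edgeR). The basement membrane chains COL4A1 and COL4A2 lie head to head on opposite strands, and a count that ignores strand could share reads between them. Both were 1.43 higher, with COL4A1 at 136, 84.1 and 137 CPM in Mock against 318, 306 and 339 CPM in siELMO1. The lower chains were COL4A6 (−1.16) and the hemidesmosomal COL17A1 (−0.30), so the type IV family did not move as one. COL4A6 fell from 65.8, 66.4 and 64.5 CPM to 30.1, 30.3 and 27.5 CPM, without overlap.

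Enzymes that mature collagen were higher too, 17 of 21 tested and none lower, with a median of 0.71. All 3 lysyl hydroxylases and 7 of 8 prolyl hydroxylase genes were among them. The collagen chaperone SERPINH1 went from 206, 175 and 171 CPM to 402, 410 and 404 CPM, which is 1.14 on the log2 scale (SE 0.06, adjusted p = 1.6e-10, edgeR). LOXL2, which crosslinks collagen and elastin, was 1.30 higher and the lysyl hydroxylase PLOD1 1.04 higher. With siELMO1 replicate 1 left out, 15 of the enzymes were higher and 1 lower.

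Of 39 other matrix genes, 30 were higher and 3 lower, 21 of the higher ones by more than 2-fold, with a median of 1.02. Fibronectin (FN1), the main provisional matrix protein, was at 972, 848 and 839 CPM in Mock and 2241, 2340 and 2141 CPM in siELMO1, or 1.34 on the log2 scale (SE 0.07, adjusted p = 2.2e-10, edgeR). Thrombospondin-1 (THBS1), an anti-angiogenic glycoprotein that also activates latent TGF-β, was at 1544, 1031 and 1391 CPM against 3889, 3857 and 4136 CPM. In both genes each siELMO1 library was more than 2 times the highest Mock library. Laminin chains LAMB1 (1.02), LAMC1 (1.16) and LAMA4 (1.05), the basement membrane proteoglycan HSPG2 (1.83), the collagen-binding SPARC (1.76), the microfibril protein FBN1 (1.48) and the fibulin EFEMP1 (1.22) were higher. All 7 had non-overlapping libraries. The 3 lower genes were the matricellular CCN1 (−0.46) and TNC (−0.40) and the phosphoprotein SPP1 (−0.56). The proteoglycan BGN was near the limit in Mock (1.03, 0.215 and 0.223 CPM) and at 3.14, 2.95 and 3.32 CPM in siELMO1, with a log2 fold change of 2.69, or 3.82 without Mock replicate 1.

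Among integrins, the receptors for these proteins, 14 of 17 subunits were higher and 1 lower, with a median of 0.84, and all 6 beta subunits tested were higher. ITGB8, whose αvβ8 dimer releases active TGF-β, was at 17.7, 11.1 and 6.82 CPM in Mock and at 52.9, 49.2 and 47.3 CPM in siELMO1 (log2 fold change 2.08, SE 0.20, adjusted p = 1.9e-07, edgeR). Its Mock libraries spread widely but stayed below every siELMO1 library. The αv chain ITGAV was 1.22 higher, and ITGA5 and ITGB1, the fibronectin receptor pair, were each 0.95 higher. The lower subunit was the leukocyte chain ITGAX (−0.60), which did not pass the test when Mock replicate 2 (adjusted p = 0.0946, edgeR), siELMO1 replicate 1 (0.119) or siELMO1 replicate 3 (0.0668) was left out.

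Matrix proteases moved in both directions, 7 higher and 3 lower of 17, while all 4 inhibitors tested were higher. The gelatinase MMP2 was at 381, 204 and 331 CPM in Mock and 1264, 1351 and 1383 CPM in siELMO1, which is 2.13 on the log2 scale (SE 0.15, adjusted p = 6.5e-09, edgeR). The interstitial collagenase MMP1 went the other way, from 1259, 1536 and 1422 CPM to 986, 997 and 986 CPM (−0.51). Groups did not overlap for either gene. The membrane-bound MMP14 (0.85), which activates the MMP2 zymogen, and the inhibitor TIMP3 (0.96) were higher. In the TGF-β and BMP pathway 17 of 36 genes were higher and 7 lower. Receptors led, with 8 of 12 higher, among them TGFBR2 at 880, 719 and 805 CPM against 1643, 1611 and 1644 CPM (1.03, adjusted p = 2.5e-10, edgeR) and TGFBR1 (0.82). The ligands TGFB2 (1.57) and GDF6 (2.39) were higher, and INHBA, the activin A chain (−0.71), and the receptor BMPR1B (−1.14) were lower. The inhibitory SMAD6 (1.41) and SMAD7 (1.13) were both higher.

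Most genes of a list of endothelial identity genes were higher, 17 of 23 against 2 lower, with a median of 0.59. PLVAP, which forms the diaphragms of fenestrae and caveolae, was at 1.71, 0.845 and 0.582 CPM in Mock and 6.99, 7.43 and 7.82 CPM in siELMO1 (log2 fold change 2.83, SE 0.25, adjusted p = 9.1e-08, edgeR). The VEGF receptor KDR was at 7.56, 3.36 and 6.66 CPM against 17.4, 20.3 and 44.3 CPM (2.22), and siELMO1 replicate 3 was more than 2 times as high as the other siELMO1 libraries. The same library was the highest for von Willebrand factor (VWF, 18.0, 19.9 and 42.9 CPM against 12.6, 7.42 and 9.37 CPM in Mock) and for PECAM1. The junction cadherin CDH5 was more even, at 536, 441 and 541 CPM in Mock and 867, 901 and 980 CPM in siELMO1 (0.86). The lower genes of the list were the nitric oxide synthase NOS3 (−0.22) and the arterial factor SOX17 (−0.32). The endothelial proteoglycan ESM1 (−1.54) and thrombomodulin THBD, both described below, are outside this list and were lower. The markers that define cell types were read from the same libraries. Their sums run over all listed markers and are counts per 1 M of the library total, without TMM scaling. Of 12 endothelial markers 11 were tested and 10 were higher, and their summed level was 1560 to 1990 CPM in Mock and 2711 to 3300 CPM in siELMO1. Of 11 lung epithelial markers, 6 were at 0 in every library, surfactant genes SFTPC, SFTPA1 and SFTPD, NKX2-1, CDH1 and KRT19 among them. All 11 summed to 817 to 842 CPM in Mock and 1056 to 1261 CPM in siELMO1. Of the 4 tested (EPCAM, KRT7, KRT8 and KRT18) 3 were higher. The T cell marker CD3E was at 0, and the 6 leukocyte markers summed to 212 to 273 CPM in Mock and 186 to 226 CPM in siELMO1, nearly all of it CD68. None of 6 fibroblast or mural markers reached the level for testing, and PDGFRA, DCN and LUM were at 0 throughout. That list summed to 0.64 to 1.25 CPM in Mock and 1.36 to 1.65 CPM in siELMO1.

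Adhesion molecules for leukocytes were higher in 8 of 10 cases and lower in 1, with a median of 0.46. P-selectin (SELP), which captures rolling leukocytes, was at 3.43, 1.13 and 1.11 CPM in Mock and at 11.4, 10.4 and 12.2 CPM in siELMO1, which is 2.59 on the log2 scale (SE 0.30, adjusted p = 2.2e-06, edgeR) or 3.33 without Mock replicate 1. ICAM1, the integrin ligand induced by inflammatory signals, was the lower one, at 840, 821 and 915 CPM against 541, 534 and 580 CPM (−0.64). The junctional molecule F11R was 1.43 higher. Of 17 coagulation and fibrinolysis genes 10 were higher and 5 lower. The thrombin receptor F2R was higher (93.8, 60.5 and 92.9 CPM against 268, 266 and 296 CPM, log2 fold change 1.75), and tissue factor F3 was lower (−0.97). The plasminogen activator inhibitor SERPINB2 fell from 559, 674 and 583 CPM to 169, 150 and 149 CPM (−1.95, SE 0.08, adjusted p = 3e-11, edgeR). Of the anticoagulant genes, thrombomodulin THBD was lower (−0.70), while the protein C receptor PROCR (0.55) and the tissue factor pathway inhibitors TFPI (0.38) and TFPI2 (0.81) were higher. Genes of vessel guidance were mostly higher, 20 of 34 ephrin, semaphorin, SLIT and Notch genes against 2 lower, with EFNA1 (1.56), the semaphorin receptor PLXND1 (1.56), EPHB4 (1.16) and the Notch ligand JAG1 (1.02) among them and SLIT2 (−0.57) lower.

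Amino acid supply and the targets of ATF4, the transcription factor of the integrated stress response, were the lowest protein-coding list. ATF4 is translated when the initiation factor eIF2α is phosphorylated, and it binds C/EBP-ATF composite elements in genes for amino acid synthesis, import and tRNA charging. Of 37 genes tested, 30 were lower and 1 higher, 13 of the lower ones by more than 2-fold, with a median of −0.92. The windows around the start sites of ASNS and CHAC1 are shown because these were among the lowest of the list and hold the core of that element. They run from 250 bases before to 50 bases after the start, 5′ to 3′ on the gene's strand, from RefSeq on GRCh38.p14, with the letters TGATGNAA (or its reverse complement) in capitals. ASNS lies at chr7:97872359-97872658 on the minus strand and CHAC1 at chr15:40953221-40953520 on the plus strand.

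ASNS: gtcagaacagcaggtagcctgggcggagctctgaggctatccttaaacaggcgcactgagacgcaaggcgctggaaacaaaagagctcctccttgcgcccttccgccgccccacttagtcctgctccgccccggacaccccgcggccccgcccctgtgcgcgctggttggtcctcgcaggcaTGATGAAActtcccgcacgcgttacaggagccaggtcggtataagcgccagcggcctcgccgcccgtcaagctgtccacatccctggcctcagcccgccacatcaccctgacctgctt

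CHAC1: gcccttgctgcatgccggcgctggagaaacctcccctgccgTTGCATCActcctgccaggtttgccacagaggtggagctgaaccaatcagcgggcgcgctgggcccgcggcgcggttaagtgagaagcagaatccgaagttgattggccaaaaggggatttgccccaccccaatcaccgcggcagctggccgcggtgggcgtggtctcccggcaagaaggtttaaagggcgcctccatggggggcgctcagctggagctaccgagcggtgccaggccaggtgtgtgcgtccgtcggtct

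The letters TGATGNAA, searched on both strands, occurred in 10 of the 33 windows available for the list (30.3%), in 8 of the 26 windows of its lower genes (30.8%), in 3.67% of all 27305 windows and in 1.68% of the 10689 windows of genes tested. This motif was chosen after the values were seen, and a match describes the letters and not a bound site. ASNS, asparagine synthetase, was at 70.1, 82.2 and 58.2 CPM in Mock and 15.1, 13.1 and 12.2 CPM in siELMO1 (log2 fold change −2.38, SE 0.11, adjusted p = 7.9e-11, edgeR). CHAC1, which degrades glutathione, was at 8.55, 11.4 and 8.50 CPM against 3.52, 1.66 and 1.82 CPM (−2.02). Neither gene's groups overlapped. ATF4 mRNA was itself lower, at 393, 437 and 367 CPM against 174, 173 and 161 CPM (−1.24, adjusted p = 5.5e-11, edgeR). DDIT3, the stress-induced factor CHOP, fell from 61.7, 73.7 and 53.1 CPM to 15.6, 13.1 and 10.7 CPM (−2.25), with MARS1 annotated on its other strand.

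The serine pathway fell together: PHGDH (−1.71) and PSAT1 (−1.81), which make serine, and the mitochondrial SHMT2 (−2.03), which passes its carbon to folate. SHMT2 was at 328, 367 and 293 CPM in Mock and 82.6, 82.4 and 77.0 CPM in siELMO1. Of amino acid transporters, the cystine importer SLC7A11 went from 171, 199 and 163 CPM to 51.8, 47.5 and 41.6 CPM (−1.92, SE 0.11, adjusted p = 4e-10, edgeR), and SLC7A5, which carries leucine, was lower too (−1.30). The one gene that was higher was the glutamine transporter SLC38A2 (0.24). Of the tRNA synthetases 8 of 10 were lower, including AARS1 (−0.79) and the interferon-inducible WARS1 (−0.78). In the endoplasmic reticulum the picture was mixed, with 14 of 32 genes of protein entry and folding higher and 11 lower. HERPUD1, a degradation factor induced by ER stress, was lower at 227, 275 and 187 CPM against 79.2, 78.2 and 68.1 CPM (−1.61). The chaperone HSPA5 (−0.45), the factor XBP1 (−0.77) and the translocon channel SEC61A1 (−1.17) were lower, and the chaperone HSP90B1 (0.35) was higher.

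NRF2, the transcription factor of the oxidative stress response (gene NFE2L2), binds antioxidant response elements in genes of the thioredoxin, glutathione and quinone systems. Of 35 target genes tested, 22 were lower and 3 higher, with a median of −0.29. The start site windows of TXNRD1 and GCLM, lower genes of the thioredoxin and glutathione arms, hold the core letters TGACNNNGC, shown in capitals on either strand. They lie at chr12:104215529-104215828 on the plus strand and chr1:93909381-93909680 on the minus strand, and come from the same RefSeq windows.

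TXNRD1: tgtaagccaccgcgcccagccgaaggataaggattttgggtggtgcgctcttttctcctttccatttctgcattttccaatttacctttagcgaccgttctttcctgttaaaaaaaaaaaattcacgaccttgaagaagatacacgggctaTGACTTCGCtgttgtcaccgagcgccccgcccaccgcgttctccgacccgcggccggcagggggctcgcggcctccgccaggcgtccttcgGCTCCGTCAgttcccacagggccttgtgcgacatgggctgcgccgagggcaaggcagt

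GCLM: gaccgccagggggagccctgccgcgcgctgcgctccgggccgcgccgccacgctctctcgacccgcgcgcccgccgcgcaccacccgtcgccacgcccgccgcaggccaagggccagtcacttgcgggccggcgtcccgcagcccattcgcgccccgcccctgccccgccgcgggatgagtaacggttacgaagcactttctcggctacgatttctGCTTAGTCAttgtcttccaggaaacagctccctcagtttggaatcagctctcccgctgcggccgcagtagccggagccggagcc

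The letters TGACNNNGC occurred in 7 of 29 windows of the list (24.1%), in 4 of the 17 windows of its lower genes (23.5%), in 13.6% of all windows and in 15.2% of those of genes tested. TXNRD1, thioredoxin reductase, was at 1250, 1454 and 1180 CPM in Mock and 644, 648 and 534 CPM in siELMO1 (log2 fold change −1.09, SE 0.09, adjusted p = 2.4e-08, edgeR). GCLM, the modifier subunit of glutathione synthesis, was at 161, 154 and 149 CPM against 93.3, 84.4 and 84.5 CPM (−0.83). All 4 thioredoxin genes tested were lower. Of 9 genes of cystine import and glutathione, 5 were lower and 3 higher, 1 of the higher ones by more than 2-fold. Groups did not overlap for TXNRD1 or GCLM. NQO1, which detoxifies quinones, fell from 344, 407 and 372 CPM to 163, 158 and 157 CPM (−1.23). AKR1C1 was lower as well, at 2.02, 2.49 and 1.40 CPM against 0.319, 0.140 and 0.420 CPM (−2.76). AKR1C1 shares near-identical stretches with AKR1C2 and AKR1C3, so the split of reads among them is uncertain. The haem oxygenase HMOX1 (−0.95), the ferritin chain FTL (−0.65), the autophagy receptor SQSTM1 (−0.80) and NFE2L2 itself (−0.46) were lower.

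Of 3 interferon genes tested 2 were lower, and the third, IFNE (−0.70), did not pass the test. IFNB1, the type I interferon of non-immune cells, was at 20.4, 21.3 and 27.5 CPM in Mock and 5.81, 5.52 and 11.6 CPM in siELMO1 (log2 fold change −1.60, SE 0.29, adjusted p = 0.00051, edgeR). The type III interferon IFNL1 was at 7.75, 7.59 and 8.29 CPM against 2.58, 2.08 and 3.76 CPM (−1.49). In both genes siELMO1 replicate 3 was the highest of its group and still below every Mock library. Over the 22 interferon, receptor and signalling genes tested, 6 were lower and 3 higher. Of the receptors 1 of 5 was lower, and of the signal transducers 2 of 8 were higher and 1 lower. Of 6 transcription factor genes tested, 1 was higher, by more than 2-fold, and 2 were lower. The lower ones were IRF7 (−0.49) and IRF9 (−0.91), which amplify the response.

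Sensors of double-stranded RNA gave no common direction, 5 of 20 higher and 4 lower, close to the 21.6% and 22.0% over all genes. TLR3 (145, 136 and 162 CPM in Mock against 152, 143 and 173 CPM in siELMO1), RIG-I (RIGI, log2 fold change 0.06) and MDA5 (IFIH1, −0.11) did not pass the test, and their groups overlapped. LGP2 (DHX58, −0.58) and the DNA sensor CGAS (−0.66) were lower, and the mitochondrial adaptor MAVS (0.41) and the kinase IKBKE (0.70) were higher.

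Interferon-stimulated genes were lower in 24 of 60 cases and higher in 3, with a median of −0.20, and only 2 of the lower ones fell by more than 2-fold. Over the alternative settings the number lower ran from 18 to 34. GBP1, a guanylate-binding protein that attacks pathogen membranes, is shown because it and GBP5 were those 2. Its start site window, at chr1:89065159-89065458 on the minus strand, holds the interferon-stimulated response element in its core form, GAAA, any 2 bases and GAAA again, in capitals as the reverse complement.

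GBP1: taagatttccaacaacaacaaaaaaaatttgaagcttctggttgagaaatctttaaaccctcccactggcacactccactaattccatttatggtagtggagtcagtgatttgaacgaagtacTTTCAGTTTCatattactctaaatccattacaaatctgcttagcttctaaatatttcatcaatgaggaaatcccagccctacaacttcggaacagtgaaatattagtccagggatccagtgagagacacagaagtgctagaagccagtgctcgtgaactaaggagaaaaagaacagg

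The same letters, on either strand, occurred in 31 of 48 windows of the list (64.6%), in 12 of the 19 windows of its lower genes (63.2%) and in 3.65% of all windows, so genes that were lower held them about as often as the list did. GBP1 was at 587, 615 and 648 CPM in Mock and 285, 284 and 349 CPM in siELMO1 (log2 fold change −1.01, SE 0.11, adjusted p = 1.2e-06, edgeR). GBP5 (−1.08) and SAMD9L (−0.83, from 1259, 1320 and 1445 CPM to 717, 689 and 851 CPM) were lower without overlap. IFIT3 was lower (−0.47), whereas IFIT1 (1084, 1107 and 1190 CPM against 1020, 979 and 1137 CPM, −0.11), ISG15 (−0.24) and OAS1 (−0.16) did not pass the test. Of 18 antigen presentation genes 6 were lower and 2 higher. The peptidase ERAP2 (−0.59) was the lowest of them, and none of the 6 class I genes, 5 HLA genes and B2M, passed the test. Without Mock replicate 1 the antigen presentation genes numbered 4 lower and 1 higher.

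**Figure D3:**
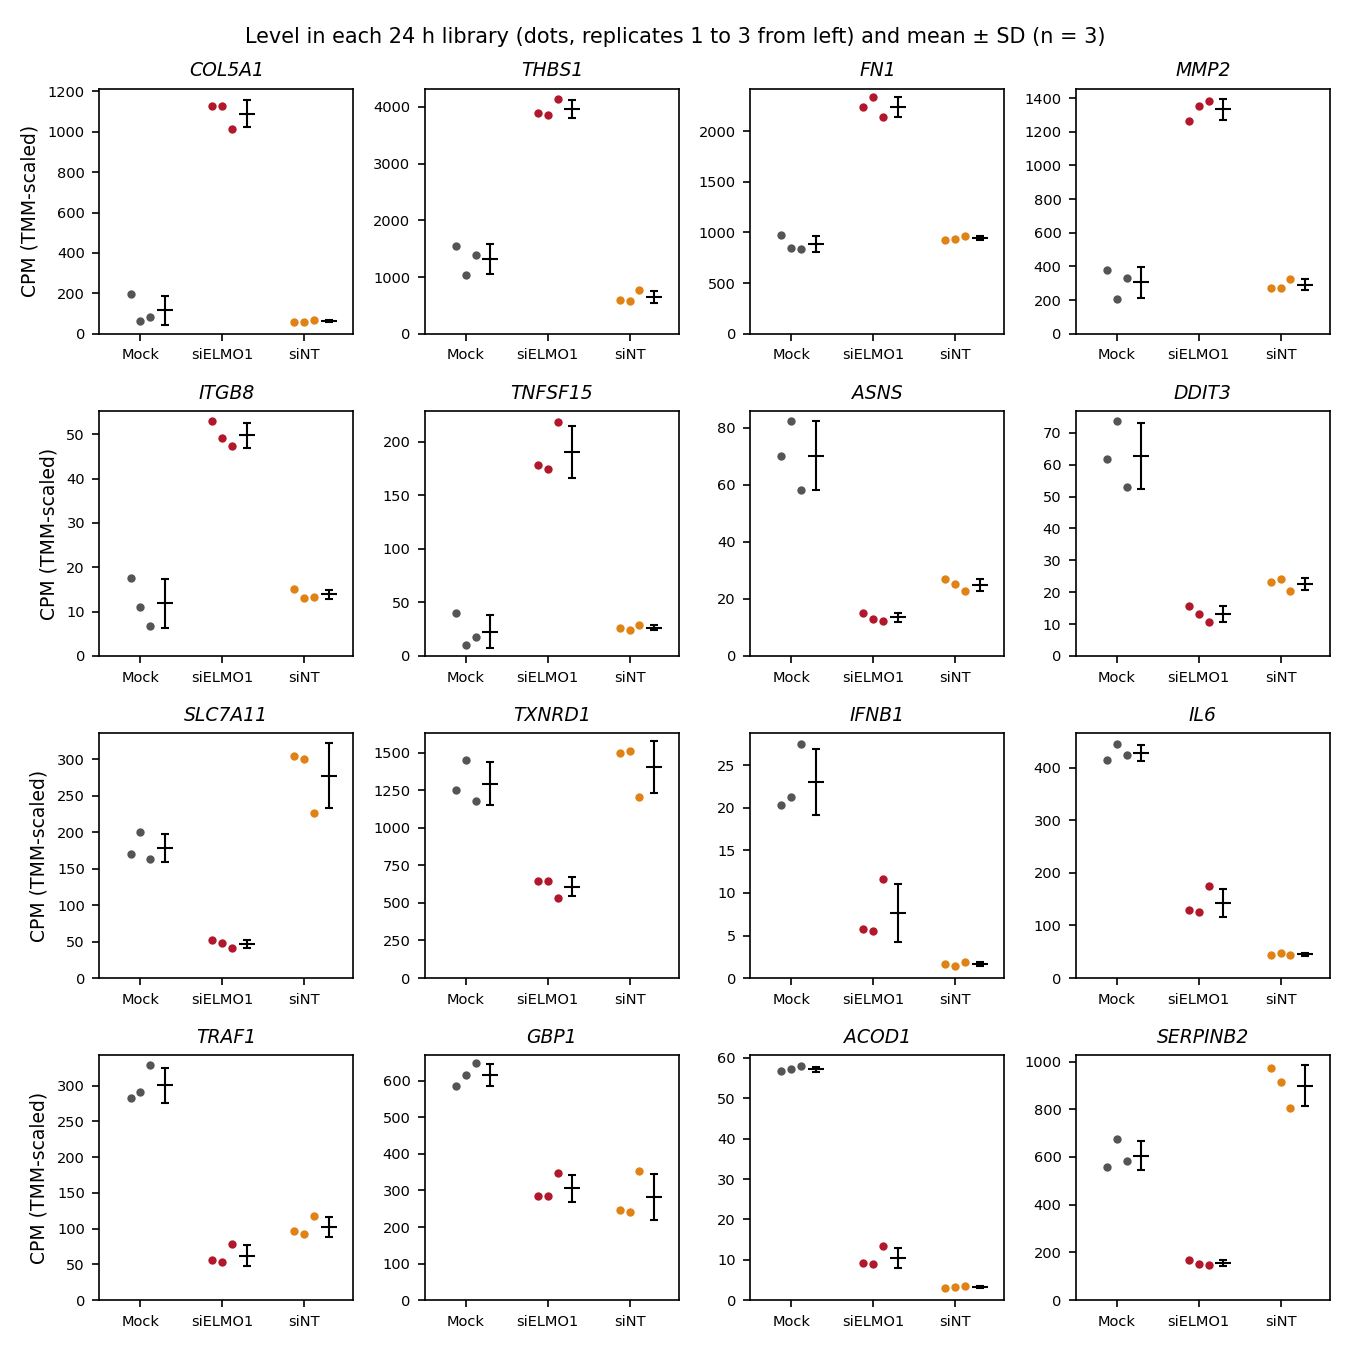
Level in each 24 h library in CPM (dots, Mock grey, siELMO1 red, siNT orange, replicates 1 to 3 from left) with mean ± SD (n = 3, black), for 16 genes, each on its own axis from 0. The upper genes, such as COL5A1, THBS1 and TNFSF15, are higher in every siELMO1 library than in every Mock library, and ASNS, SLC7A11, TXNRD1, IFNB1, IL6 and GBP1 are lower in every one.

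NF-κB genes were lower in 13 of 22 cases and higher in none, with a median of −0.27. 4 of the 5 subunit genes were among them, RELA at 230, 257 and 252 CPM against 168, 170 and 179 CPM (log2 fold change −0.52, adjusted p = 1.1e-06, edgeR) and NFKB1 (−0.43), as were the inhibitors that NF-κB itself induces, NFKBIA (−0.41) and TNFAIP3 (−0.32). TRAF1, an adaptor of TNF receptors, fell most, from 282, 291 and 328 CPM to 55.6, 53 and 78.7 CPM (−2.27, SE 0.13, adjusted p = 4.3e-10, edgeR). Among chemokines, 5 of 12 were lower and 1 higher. The neutrophil attractant CXCL8 fell from 1202, 1116 and 1138 CPM to 615, 512 and 641 CPM (−0.97), and CCL5, an attractant of T cells, was lower too (−1.08), though DESeq2 gave CCL5 an adjusted p of 0.197 and called 3 chemokines lower in place of 5. CXCL1 (−0.08) and the interferon-induced CXCL10 (0.03) did not pass the test and overlapped between groups. The monocyte attractant CCL2 was the higher one, at 293, 242 and 343 CPM against 402, 402 and 504 CPM (0.57, adjusted p = 0.00071, edgeR).

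Cytokines and related genes divided, 12 of 28 lower and 8 higher. IL6, the main inducer of the acute phase response, was at 414, 445 and 424 CPM in Mock and 130, 125 and 174 CPM in siELMO1 (log2 fold change −1.58, SE 0.14, adjusted p = 6.9e-08, edgeR). ACOD1, which makes the immunometabolite itaconate, fell from 56.7, 57.1 and 57.9 CPM to 9.22, 8.95 and 13.4 CPM (−2.45). The prostaglandin synthase PTGS2 (−0.95) and the decoy receptor IL13RA2 (−2.53) were lower. Against this direction, CSF2, the growth factor GM-CSF, was at 10.8, 4.37 and 10.4 CPM against 28.8, 25.4 and 32.0 CPM (1.76, adjusted p = 1.4e-05, edgeR), and the IL-27 subunit EBI3 was 1.13 higher. IL1B stood at 132, 125 and 124 CPM in Mock and 132, 120 and 128 CPM in siELMO1, with a log2 fold change of 0.00. In the TNF superfamily 9 of 26 genes were higher and 3 lower, but only 5 were higher without Mock replicate 1. TNFSF15, the endothelial cytokine TL1A (ENSG00000181634.8, chr9:114784652-114806039), was at 39.8, 10.4 and 17.4 CPM in Mock and 179, 175 and 218 CPM in siELMO1. Its log2 fold change was 3.09 (SE 0.30, adjusted p = 3e-07, edgeR), and 3.77 without Mock replicate 1. The death receptor ligand TNFSF10 (−0.37) did not pass the test.

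S phase and G2/M genes were lower almost as a block, though by modest amounts. Of 43 S phase genes 39 were lower and none higher (median −0.43), and of 54 G2/M genes 46 were lower and 2 higher (median −0.50). MCM2, a subunit of the replicative helicase, was at 118, 129 and 120 CPM in Mock and 73.7, 73.5 and 66.0 CPM in siELMO1 (log2 fold change −0.78, adjusted p = 3.9e-08, edgeR), and the mitotic kinase CDK1 at 86.9, 86.2 and 80.7 CPM against 63.3, 57.4 and 50.3 CPM (−0.57). The repressor E2F8 (−1.14) and the MYC target CDCA7 (−1.06) were the S phase genes that fell by more than 2-fold. The higher G2/M genes were the heterochromatin protein CBX5 (0.80) and JPT1 (0.28). In a further list of 26 cyclin, kinase, inhibitor, E2F and RB genes tested, 16 were lower and 4 higher (median −0.25). All 4 inhibitors tested in it were lower. Targets of p53 gave no common direction, 9 of 27 higher and 8 lower with a median of −0.02. Of 34 regulators of apoptosis 11 were lower and 5 higher. PMAIP1, the BH3-only protein NOXA, fell from 567, 523 and 600 CPM to 201, 188 and 257 CPM (−1.39, SE 0.10, adjusted p = 1.1e-08, edgeR), and the BCL2 family inhibitor BCL2A1 fell from 16.3, 21.8 and 18.1 CPM to 6.17, 6.82 and 6.90 CPM (−1.50). The BH3-only BMF (1.41) and the effector BAK1 (0.92) were higher, so genes that promote cell death lay on both sides. Of the 5 BCL2 family inhibitors tested, 3 were lower and none higher.

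Cholesterol synthesis genes were higher in 17 of 27 cases and lower in 2, with MSMO1 (log2 fold change 0.87) and DHCR7 (0.79) among the higher enzymes and the sterol carrier STARD4 (−0.36) lower. None changed by more than 2-fold, and siELMO1 replicate 3 was the lowest siELMO1 library for MSMO1 and DHCR7. Glycolysis and hypoxia genes were evenly divided, 7 of 27 on each side, and only 3 were lower with Mock replicate 2 left out. ANGPTL4, a lipase inhibitor induced by hypoxia, was the outlier of the list at 1.44. Mitochondrially encoded mRNAs were lower in 4 of 13 cases and higher in none, a count that ran from 0 to 6 over the alternatives, while the ribosomal MT-RNR2 was higher at 8165, 8880 and 8315 CPM against 5695, 5379 and 5601 CPM (0.60, adjusted p = 0.003, edgeR). Of 26 AP-1, EGR, KLF, MAF and MAPK feedback genes 11 were lower and 7 higher, MAF itself among the higher ones. EGR1 (−1.40), the AP-1 subunit FOSL1 (−0.86) and the MAPK inhibitor SPRY2 (−1.08) were lower, and the AP-1 subunit FOSL2 (0.67) and the kinase MAP2K6 (1.70) were higher. Of 8 nuclear structured RNAs tested 6 were lower, all by more than 2-fold. The 5 annotated copies of 5.8S ribosomal RNA share their reads and count as 1 measurement, with log2 fold changes of −2.04 to −2.02, and RN7SK, which restrains transcription elongation, was at 15.0, 27.0 and 25.5 CPM in Mock and 9.50, 9.31 and 9.81 CPM in siELMO1 (−1.24). Counts of such RNAs without long poly(A) tails depend on how mRNA was selected.

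The protein-coding genes with the largest fold changes, at a mean of at least 1 CPM and with no overlap between groups, were a different set from the abundant ones. On the higher side MAF, a leucine zipper factor, was at 0.343, 0.116 and 0.103 CPM in Mock and 2.37, 2.30 and 1.88 CPM in siELMO1 (log2 fold change 3.55, SE 0.55, adjusted p = 5e-05, edgeR). The epithelial factor EHF (3.53), the myelin gene MOBP (4.03), the chemokine CCL23 (2.84) and the phosphatase subunit PPP1R16B (2.87) shared with MAF that Mock replicate 1 was the highest Mock library. Without it the log2 fold changes were 4.29 for MAF, 4.25 for EHF, 5.56 for MOBP, 4.17 for CCL23 and 3.55 for PPP1R16B. For MOBP a transcript marked for nonsense-mediated decay held 100% of the Mock counts and 83% of the siELMO1 counts. ART4, a blood group antigen, was 3.38 higher, but DESeq2 gave it an adjusted p of 0.178. The largest value, RAB4B-EGLN2 at 6.42, is a readthrough transcript of neighbouring genes on the same strand. It was at 0.349, 20.1 and 11.9 CPM in siELMO1 and 0.267, 0.0828 and 0.0343 CPM in Mock, so siELMO1 replicate 1 sat close to Mock. Its log2 fold change was 7.46 without Mock replicate 1 and 5.59 without siELMO1 replicate 2, and limma-voom gave an adjusted p of 0.177. Its parents RAB4B (0.15) and EGLN2 (−0.12) did not pass the test. For RAB4B-EGLN2 a transcript marked for nonsense-mediated decay held 98.5% of the siELMO1 counts, with 99.7% in replicates 2 and 3 and none in replicate 1. A second readthrough, IFNAR2-IL10RB (2.93), was at 17.3, 4.77 and 3.24 CPM in siELMO1 and lost its call when siELMO1 replicate 1 was left out (1.86, adjusted p = 0.15, edgeR), and also without Mock replicate 1 (adjusted p = 0.0699, edgeR) or Mock replicate 3 (0.0768). Without Mock replicate 2 it was 4.04. How the quantifier split reads between such loci and their parents was not tested.

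On the lower side KLHDC7B, a kelch-domain gene, was at 18.2, 25.1 and 18.2 CPM in Mock and 1.32, 1.74 and 0.740 CPM in siELMO1 (log2 fold change −4.0, SE 0.35, adjusted p = 6.7e-08, edgeR). MEP1B, a meprin protease, held 107, 103 and 121 counts in Mock and 0, 8 and 3 in siELMO1. Its fitted log2 fold change of −4.94 rests on those few counts, was −6.08 without siELMO1 replicate 2 and −4.33 without replicate 1, and its adjusted p was 0.0696 with DESeq2. The cartilage matrilin MATN3 (−2.11), PRR20G (−2.10) and the complement protease C1R (22.2, 30.4 and 34.3 CPM against 6.31, 7.06 and 7.86 CPM, −2.03) completed the group with the genes described above. Among the most abundant genes that changed, PRSS23, a serine protease, was 1.01 higher. ESM1, the endothelial proteoglycan endocan, fell from 1351, 1354 and 1370 CPM to 492, 434 and 476 CPM (−1.54, SE 0.06, adjusted p = 7.9e-12, edgeR). The chromatin factor MORF4L2 (−1.05) and the clock factor BMAL2 (−1.51) were lower. Of long non-coding RNAs, THBS1-IT1 (2.24) lies inside THBS1 on the same strand and cannot be separated from its host's pre-mRNA by these counts. LINC02709 (1.80) and DIRC3-AS1 (1.75) were higher, and LGALS17A (−2.17), COP1-DT (−2.10) and CCDC144NL (−2.04) lower.

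Cells with the non-targeting siRNA were set beside these values. siNT was compared with the same 3 Mock libraries, so the comparisons are not independent and their values are only placed side by side. Between siNT and Mock 3825 genes were higher (25.2%) and 3782 lower (24.9%), and with a fold change over 2 the counts were 438 (2.89%) and 581 (3.83%). Collagens had a median of 0.79 for siELMO1 and −0.56 for siNT, where 11 of 20 were lower and 3 higher. COL5A1 was at 3.23 and −0.90, THBS1 at 1.58 and −1.03, and COL4A1 at 1.43 and −1.15 in the order siELMO1 and siNT. Other matrix genes were near their middle in siNT (median 0.12, 13 higher and 10 lower), and integrins were higher in both (0.84 and 0.41). NRF2 targets had medians of −0.29 and 0.09, with SLC7A11 at −1.92 and 0.64 and TXNRD1 at −1.09 and 0.12. ATF4 and one-carbon genes were lower in both, with medians of −0.92 and −0.51 and 30 and 31 of 37 lower. The S phase and G2/M lists had nearly the same medians, −0.43 and −0.45 for S phase and −0.50 and −0.50 for G2/M. Antiviral lists had medians further below 0 in siNT: interferon-stimulated genes had medians of −0.20 and −0.58 with 24 and 55 of 60 lower, and chemokines −0.31 and −2.31. IFNB1 was at −1.60 and −3.78, IL6 at −1.58 and −3.26, and CXCL1 at −0.08 and −4.10. The paper reports widespread death of siNT cells after poly(I:C) and proposes this as the likely reason for their lower inflammatory gene expression. How much of the difference between siNT and Mock in any list reflects dying cells was not tested.

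**Figure D4:**
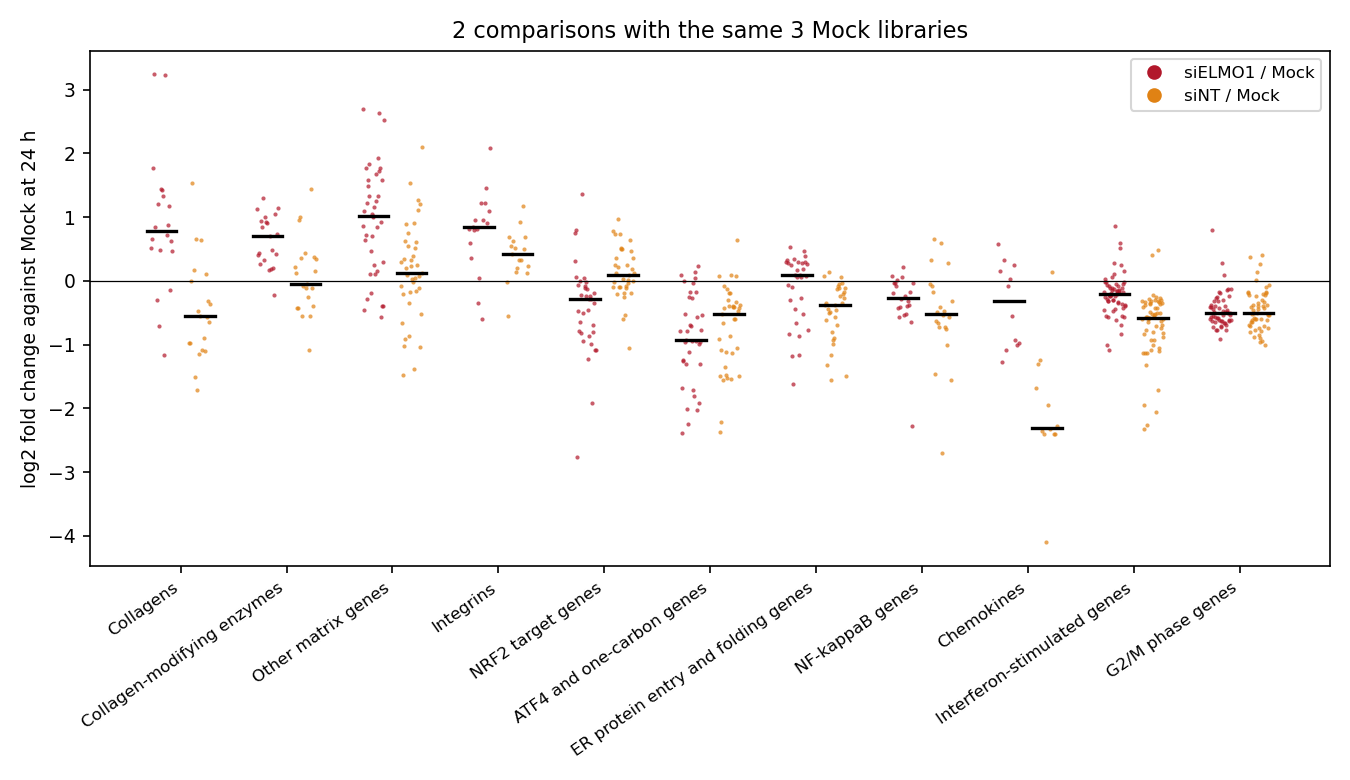
Log2 fold change against the same 3 Mock libraries at 24 h for siELMO1 (red) and siNT (orange), 1 dot per tested member of 11 gene lists, black bars at the medians. Collagens lie on opposite sides of 0 (medians 0.79 and −0.56), G2/M genes at the same height (−0.50 and −0.50), and chemokines reach much further down in siNT (−2.31 against −0.31).

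Many of the differences were present before poly(I:C), and others changed with it. By the interaction term of the same edgeR model, the log2 fold change at 24 h lay above that at 0 h for 2090 genes (13.8%). It lay below for 2209 (14.6%). The sign gives the direction of the shift and not its size, so genes whose difference shrank are among them. BMAL2, at −2.87 at 0 h and −1.51 at 24 h, is one with a positive interaction. Matrix lists had medians above 0 at both times. Collagens had a median of 0.69 at 0 h and 0.79 at 24 h, with the interaction positive for 6 and negative for 3 of 20. It was positive for 13 and negative for 2 of 39 other matrix genes, and positive for 10 of 21 collagen-modifying enzymes and 10 of 17 integrins with none negative. THBS1 was 1.76 and then 1.58 (interaction −0.17, adjusted p = 0.48, edgeR). The interaction was 2.59 for COL15A1 (adjusted p = 0.00063, edgeR) and, among cytokines, 1.85 for TNFSF15 (adjusted p = 0.0024, edgeR). S phase and G2/M genes shifted almost throughout. At 0 h S phase genes had a median of −1.62 and G2/M genes one of −1.87, and the interaction was positive for 40 of 43 and 53 of 54 of them, so siELMO1 and Mock lay closer together after poly(I:C). MCM2 was at −1.97 before and −0.78 after.

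The interaction was negative for 21 and positive for 3 of 37 ATF4 and one-carbon genes, for 11 and 1 of 28 cytokine genes and for 7 and 2 of 22 NF-κB genes, while NRF2 targets had 7 negative and 5 positive of 35. ICAM1 was 1.5 higher in siELMO1 at 0 h and lower at 24 h (−0.64, interaction −2.14, adjusted p = 3.5e-10, edgeR), and PTGS2 was 2.03 higher at first and then lower (−0.95). HERPUD1 went from 0.05 to −1.61 and DDIT3 from −0.69 to −2.25 (interaction −1.57, adjusted p = 9.6e-06, edgeR). TRAF1 went from −0.26 to −2.27. In contrast SHMT2 was equally low at both times (−2.17 and −2.03), and SLC7A11 was lower at 0 h (−2.93) than at 24 h. All 13 mitochondrially encoded mRNAs had a negative interaction, with medians of 1.37 at 0 h and −0.31 at 24 h. The siELMO1 0 h libraries were less alike than the 24 h groups, with mitochondrial shares of 1.86, 4.02 and 3.95% and a count total of 40.4 M in replicate 2, and the part of this in the interaction was not tested. Without siELMO1 0 h replicate 1 the interaction was called for 5354 genes in place of 4299.

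**Figure D5:**
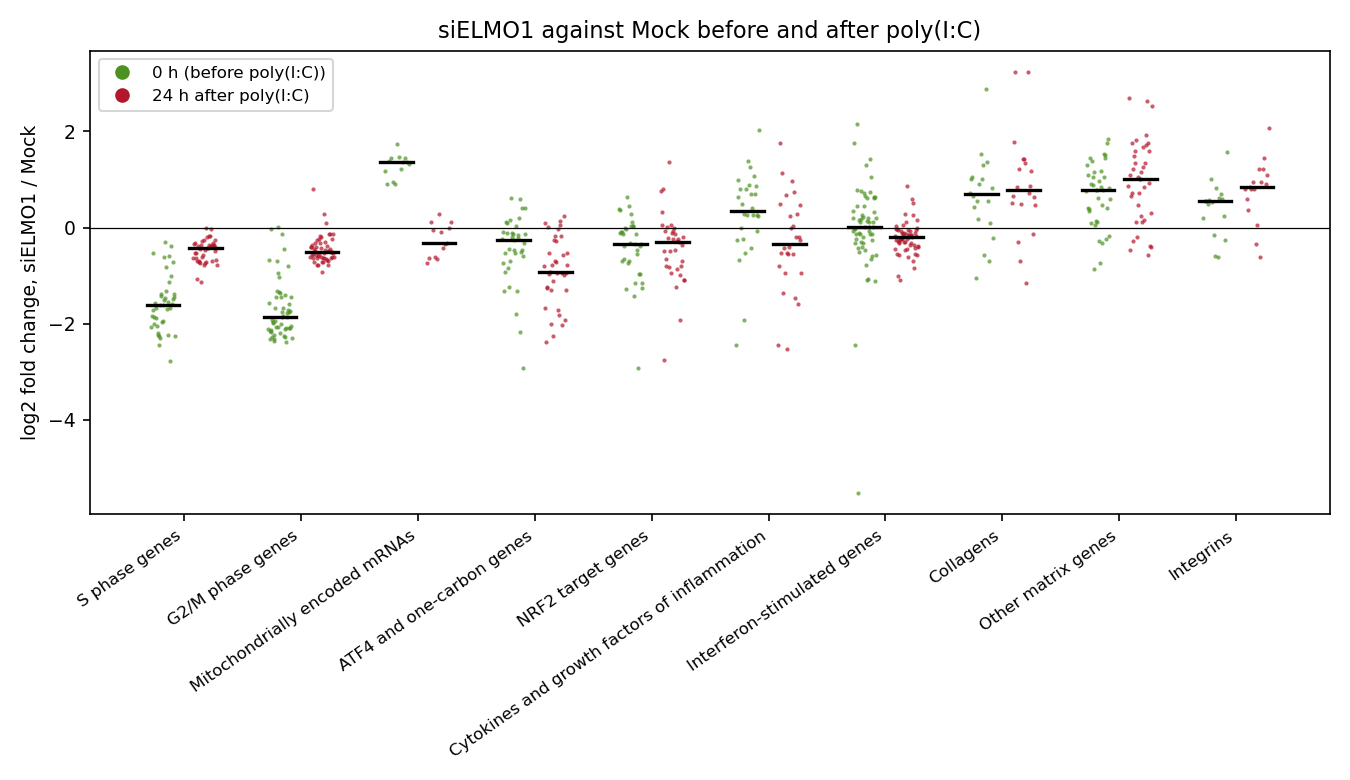
Log2 fold change of siELMO1 over Mock at 0 h (green, before poly(I:C)) and 24 h (red) for the tested members of 10 gene lists, 1 dot per gene, black bars at the medians. S phase and G2/M genes have medians of −1.62 and −1.87 at 0 h and −0.43 and −0.50 at 24 h. Medians at 0 h and 24 h are 1.37 and −0.31 for mitochondrial mRNAs and 0.69 and 0.79 for collagens.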

How the data were processed

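Poly(A) RNA of EA.hy926 cells was sequenced from a stranded kit. The authors aligned reads to GRCh38 with STAR and quantified Gencode v44 genes with StringTie, whose estimated counts they deposited as whole numbers without normalization. Versions, and whether counting used strand, are not given in the sources used here. Genes with under 100 counts in all or a maximum under 1 CPM were removed, as the study's methods state, which left 15167 of 62754. Counts of all 18 libraries (3 in each of 6 groups) were scaled by TMM and fitted with one mean per group by edgeR 4.0.16 in R 4.3.3 (quasi-likelihood F test, two-sided, Benjamini-Hochberg). The study's own methods use limma-voom (limma 3.58.1 here), which was run as an alternative beside DESeq2 1.42.0, other scalings and filters, the 6 libraries alone, a replicate block, and each library left out.

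The members and gene lists were chosen with earlier results of these data known. Genes named are ELMO1, list members, the 12 protein-coding and 3 long non-coding genes with the largest fold change in each direction and the 6 most abundant in each direction, all at an adjusted p under 0.05, over 2-fold, at a mean of at least 1 CPM for the folds and without overlap. Deviations from the group mean in siNT and Mock libraries with the same replicate number correlated weakly (r = 0.163, 0.228 and 0.145). Those of siELMO1 and Mock did not in every pair. No label says that equal numbers mark paired libraries. Deviations within a group of 3 sum to 0, so these correlations cannot decide it. The siNT counts are from the fit without the block, which called 1019 genes over 2-fold against 1036 with it. On simulated counts of the same 15167 genes, 83% of 100 genes changed 2-fold and 97% of 100 changed 4-fold were recovered for siELMO1 against Mock at 24 h, and 8 of 14967 unchanged genes were called. The changed genes had a mean of at least 1 CPM and went up and down equally often. All other genes had the same mean in every group. Far more genes differ in the real libraries, so these rates describe the simulated setting only. Start site windows are RefSeq sequences on GRCh38.p14, matched by symbol. A few genes that these rules name are not reported here.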

Additional observations from a re-analysis of the deposited data

Results flagged for a closer look

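Each value here is the siELMO1 against Mock difference at 24 h minus that at 0 h on the log2 scale, with its adjusted p from the interaction term in edgeR. In all, 2090 genes had a higher and 2209 a lower difference at 24 h. Matrix and cytokine genes on the higher side were COL15A1 (2.59, adjusted p = 0.00063), TNFSF15 (1.85, adjusted p = 0.00243) and, by a small amount, FN1 (0.297, adjusted p = 0.0289). The readthrough IFNAR2-IL10RB stood at 4.73 (adjusted p = 0.0147), the clock factor BMAL2 at 1.35 (adjusted p = 6.3e-06) and MORF4L2 at 0.307 (adjusted p = 0.00196). BMAL2 (−2.87 at 0 h and −1.51 at 24 h) and MORF4L2 (−1.35 and −1.05) were lower in siELMO1 at both times, by less at 24 h.

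On the lower side were the stress genes ASNS (−1.06, adjusted p = 5.47e-05) and DDIT3 (−1.57, adjusted p = 9.58e-06) and the inflammatory adaptor TRAF1 (−2.01, adjusted p = 1.26e-05). KLHDC7B (−2.6, adjusted p = 0.00885), AKR1C1 (−2.07, adjusted p = 0.00355), C1R (−1.46, adjusted p = 0.0282) and GBP1 (−0.869, adjusted p = 0.00225) also moved down. The shifts of TGFBR2 (−0.216, adjusted p = 0.0418) and ESM1 (−0.221, adjusted p = 0.0393) were small. TGFBR2 was higher in siELMO1 at both times, by less at 24 h (1.24 at 0 h and 1.03 at 24 h).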

How the results depend on the processing

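No count of genes over 2-fold moved by more than 1.5 times under any alternative run. Genes higher numbered 550 with DESeq2, 521 with limma-voom, 466 without TMM factors, 615 with filterByExpr and 582 with no filter, and genes lower 269, 283, 286, 321 and 289 in the same order. Leaving out one library gave 429 (without Mock replicate 2) to 542 higher and 246 to 287 lower genes, 3609 to 5354 genes for the interaction and 906 to 1159 for siNT. The share of calls that were higher ran from 45.6% without TMM factors to 51.3% with DESeq2, against 49.5%. Small lists moved more: interferon-stimulated genes higher ran from 1 to 6, TNF superfamily genes higher from 5 to 11 and mitochondrially encoded mRNAs lower from 0 to 6. The cause was not tested.

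With the replicate number as a block 509 genes were higher and 277 lower, the interaction gave 4579 genes and siNT 1036. Between siELMO1 and Mock the deviations of same-numbered libraries correlated at 0.00987, 0.217 and 0.348, and siELMO1 replicate 1 correlated best with Mock replicate 2 (0.198). Whether equal numbers pair libraries is not stated in the labels and cannot be decided from these values.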
